A study of Rattus norvegicus with 6 samples.

Results

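The genes described here are epithelial oxidase and antimicrobial defence genes of the rat colon, measured in the nuclei that the authors annotated as enterocytes, with the nuclei annotated as T cells as background. The set was named by gene, without use of measured values, as Duox2, Duoxa2, Nox1, Nos2, Reg3b, Reg3g, Lcn2, Pigr and Dmbt1, and 4 of these 9, Duox2, Duoxa2, Nox1 and Pigr, were matched by symbol among the 17388 genes of the count tables. Nos2, Reg3b, Reg3g, Lcn2 and Dmbt1 were not analysed here. Single nuclei RNA sequencing (snRNA-seq) was performed on flash-frozen colon of wildtype male Wistar rats in 3 treatment groups. The placebo and PL8177 groups both drank 5% dextran sulfate sodium (DSS), a polymer that injures the colonic epithelium, for 3 days, and were then gavaged 2 times a day for 4 days, from day 4 to day 7, with capsules without drug or with 50 µg PL8177, a melanocortin-1 receptor agonist, while the sham group drank water only and received no DSS. The start of each nucleus name was read as a library tag, which gave 3 libraries per treatment, GR12, GR13 and GR15 in sham, GR22, GR23 and GR24 in placebo, and GR41, GR43 and GR44 in PL8177. No label ties these tags to single animals, and the values per library and their p-values depend on this reading of the names.

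DUOX2 is an NADPH oxidase of the apical epithelial membrane that releases hydrogen peroxide into the lumen, and DUOXA2 is the maturation factor that it needs to leave the endoplasmic reticulum. NOX1 is a second, superoxide-producing oxidase of the colonic epithelium, which works with the organiser NOXO1, the activator NOXA1, the membrane subunit CYBA and the GTPase RAC1. PIGR, the polymeric immunoglobulin receptor, carries dimeric IgA made by plasma cells across the epithelium into the lumen. Epithelial defence genes of this kind are known to respond to microbial products and to cytokines such as interleukin (IL)-17 and IL-22.

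Duox2 and Duoxa2 lie next to each other and are read in opposite directions, so their promoter sequence is shown because it is shared by the pair. RefSeq promoter windows of 300 bases at the gene start, in the build GRCr8, were found for 3 of the 4 genes, Duox2, Nox1 and Pigr, and Duoxa2 is named only. The Duox2 window is chr3:129698704-129699003 on the minus strand and the Pigr window, shown for comparison, is chr13:44850932-44851231 on the plus strand. These windows come from another build than the one the reads were counted on. Capitals mark the 66 bases of the Duox2 window that RefSeq places inside Duoxa2, and in the Pigr window a CACGTG motif.
Duox2 promoter: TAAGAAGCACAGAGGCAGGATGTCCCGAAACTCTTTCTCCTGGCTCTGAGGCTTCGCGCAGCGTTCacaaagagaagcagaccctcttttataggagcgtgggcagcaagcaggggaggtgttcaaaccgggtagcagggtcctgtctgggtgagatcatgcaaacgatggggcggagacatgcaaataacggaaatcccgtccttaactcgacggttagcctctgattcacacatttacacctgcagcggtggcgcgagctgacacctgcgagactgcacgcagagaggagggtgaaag
Pigr promoter: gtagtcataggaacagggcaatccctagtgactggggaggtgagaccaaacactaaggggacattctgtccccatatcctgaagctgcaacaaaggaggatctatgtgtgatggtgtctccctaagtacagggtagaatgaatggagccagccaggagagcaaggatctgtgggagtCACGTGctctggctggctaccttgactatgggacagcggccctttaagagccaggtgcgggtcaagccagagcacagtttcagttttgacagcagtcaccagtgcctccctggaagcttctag
Of the 300 bases of the Duox2 window, 183 lie inside the annotated Duox2 gene and 51 between the genes. Both strands were searched for 4 motifs. The STAT motif TTCNNNGAA was not found, and it occurs in 8.87% of all 33469 RefSeq windows of this kind. The motif TATAAA was found on the minus strand of the Duox2 window at bases 88 to 93, counted from 1 at the printed start, and occurs in 14.2% of the windows. A GC box was found on the plus strand of the Duox2 window at bases 171 to 176, spelled GGGCGG, and occurs in 33.1% of the windows. The E-box of the Pigr window stands at bases 178 to 183, is spelled CACGTG and occurs in 6.42% of the windows. The Nox1 window held none of the 4. These motifs do not overlap each other in the windows, and a match describes letters only.

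The tables hold counts of unique molecular identifiers (UMIs, barcodes that let each captured RNA molecule be counted 1 time) for 8782 enterocyte and 1018 T cell nuclei. Enterocyte libraries held 304 to 1531 nuclei and 310927 to 3995627 UMIs, and T cell libraries 19 to 685 nuclei and 8070 to 779009 UMIs. Levels are given as UMIs per 10000 UMIs of a library and cell type, over the 15108 genes that every table holds. Summed over 16 enterocyte markers, the enterocyte nuclei carried 176 to 455 UMIs per 10000, and their 13 T cell markers 0.161 to 0.868. The T cell nuclei carried 25.5 to 58.4 UMIs of T cell markers per 10000 in 8 libraries. The T cell nuclei of placebo library GR23, 685 of all 1018, went against their label, with 2.20 UMIs of T cell markers and 230 of enterocyte markers per 10000, so the pooled T cell values below are given with and without GR23. Of the 9790 barcodes, 10 occurred in 2 or more libraries. Libraries differ in how many cells of each kind were captured, and within a level fewer cells that use a gene and less RNA per cell cannot be told apart.

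Among nuclei annotated as enterocytes, Duox2, the oxidase itself, had its 3 lowest levels in the 3 placebo libraries, although no difference passed the adjusted threshold. In sham enterocytes it was at 2.59 (GR12), 3.13 (GR13) and 2.49 (GR15) UMIs per 10000. In placebo enterocytes it was at 1.06 (GR22), 2.06 (GR23) and 1.79 (GR24), and in PL8177 enterocytes at 2.42 (GR41), 2.73 (GR43) and 2.74 (GR44). By this annotation, every placebo library lay below every sham and every PL8177 library, and the sham and PL8177 libraries overlapped. The 685 GR23 nuclei annotated as T cells, which carried enterocyte markers, are not counted here. Their Duox2 level was 4.06 on 316 UMIs, above every enterocyte library, while the GR23 enterocyte level rests on 64 UMIs. Those nuclei bring 316 Duox2 UMIs among 779009 UMIs, beside 64 among 310927 in the GR23 enterocyte nuclei. With them counted as enterocytes, GR23 would not lie below the sham and PL8177 libraries. The order of the groups thus holds only for the annotation used, and no fit was made with those nuclei counted. The means were 2.74 ± 0.347 in sham, 1.63 ± 0.518 in placebo and 2.63 ± 0.181 in PL8177 (SD, n = 3 each). Within placebo, GR22, the library with the most enterocyte UMIs of that group, was the lowest, and its exact Poisson 95% interval of 0.957 to 1.17 lay below those of GR23, which began at 1.59, and GR24, which began at 1.59. Such intervals cover counting error only.

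**Figure D1:**
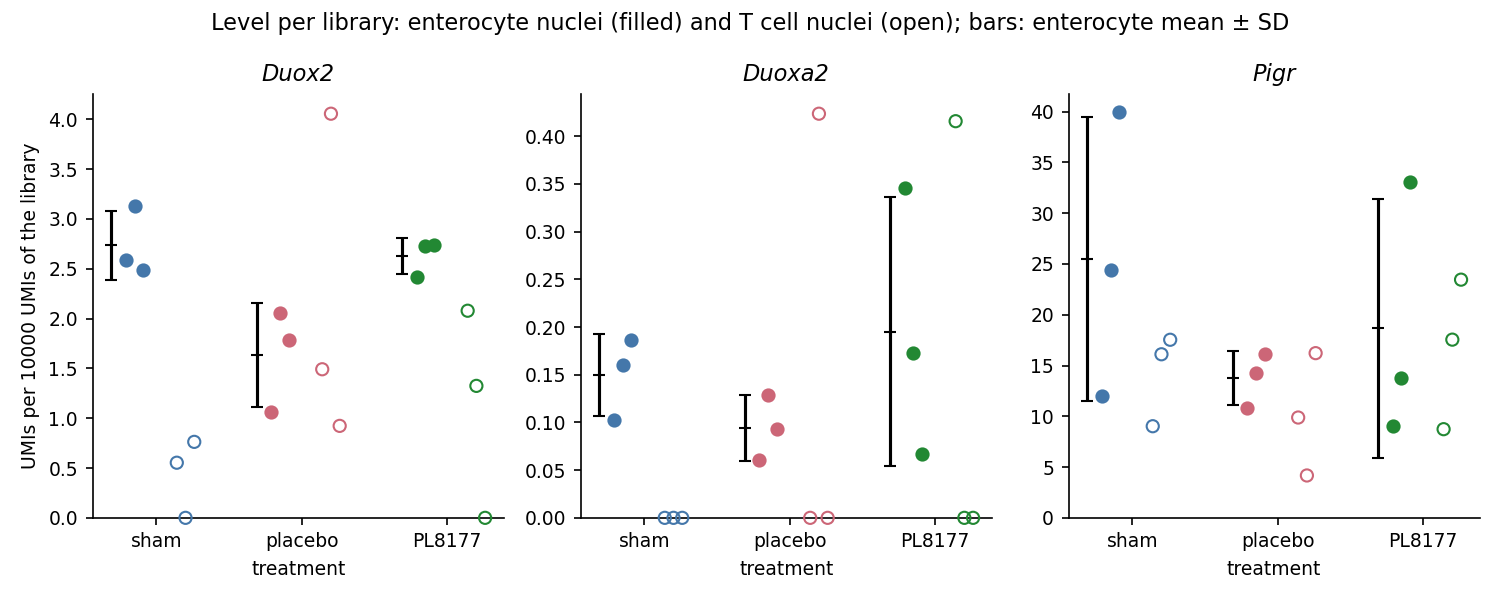
Levels of Duox2, Duoxa2 and Pigr (y axes, UMIs per 10000 UMIs of the library) in enterocyte nuclei (filled points) and T cell nuclei (open points) by treatment, 1 point per library, with the enterocyte mean ± SD as black bars. The 3 placebo points of Duox2 in enterocytes, 1.06 to 2.06, lie below all sham and PL8177 points, whereas the treatments overlap for Duoxa2 and Pigr.

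In the edgeR quasi-likelihood fit over the 9 enterocyte libraries, the Duox2 log2 fold change of placebo against sham was -0.94 (SE 0.269, 95% interval -1.53 to -0.36), with an edgeR adjusted p (Benjamini-Hochberg, over all genes tested) of 0.218. For PL8177 against placebo it was 0.88 (SE 0.267, 95% interval 0.30 to 1.46), with an edgeR adjusted p of 0.366. Both comparisons use the same placebo libraries. For PL8177 against sham it was -0.06 (SE 0.263), with a 95% interval of -0.63 to 0.51 and an edgeR adjusted p of 0.987. With placebo library GR22 left out, the first 2 values were -0.69 and 0.63, the values nearest to 0 among the alternatives. Over all 18 alternatives that could be computed, the adjusted p of placebo against sham ran from 0.0655 to 0.566 and that of PL8177 against placebo from 0.163 to 0.750.

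**Figure D2:**
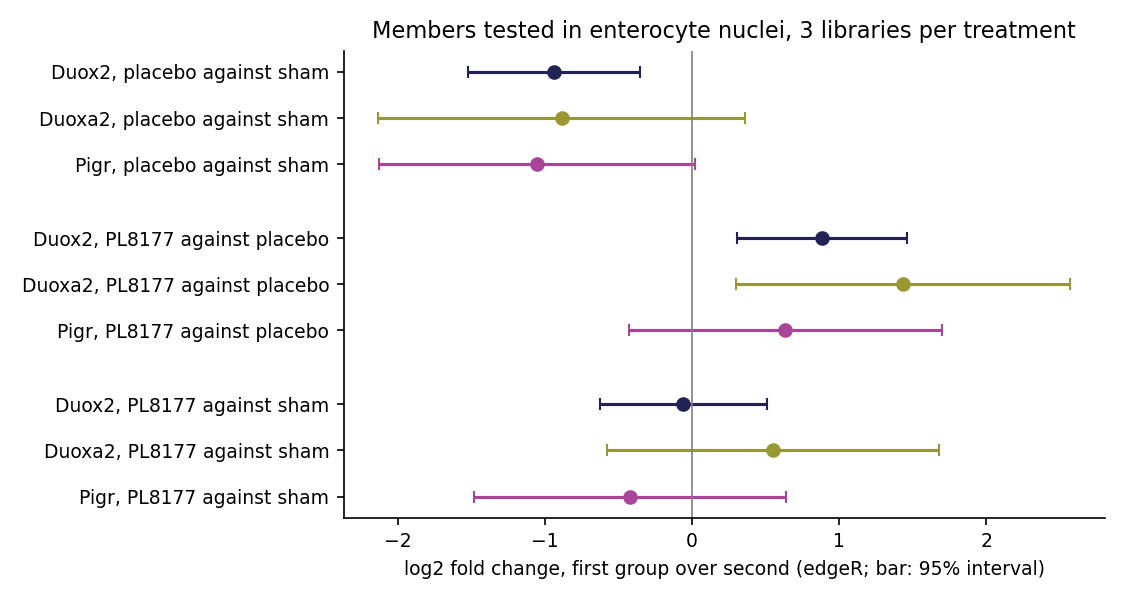
Log2 fold changes of Duox2, Duoxa2 and Pigr in enterocyte nuclei (x axis, first group over second) for the 3 treatment comparisons (rows), with 95% intervals from the edgeR fit over 3 libraries per treatment. The Duox2 intervals of placebo against sham (-1.53 to -0.36) and PL8177 against placebo (0.30 to 1.46) lie on opposite sides of 0, and the interval of PL8177 against sham spans it.

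The share of enterocyte nuclei with a Duox2 UMI ran from 9.86% in GR24 to 24.1% in GR12, the library with the highest median depth (2331 UMIs per nucleus), and 1312 of 8782 nuclei had at least 1. No nucleus held more than 23. To compare shares at 1 depth, each nucleus was thinned to 300 UMIs, which left out 275 sham, 125 placebo and 238 PL8177 enterocyte nuclei. The share with a Duox2 UMI was then 4.97%, 8.14% and 7.83% in sham (GR12, GR13, GR15), 3.19%, 5.24% and 3.20% in placebo (GR22, GR23, GR24) and 4.88%, 5.91% and 7.17% in PL8177 (GR41, GR43, GR44). Placebo library GR23 lay within the range of the other groups here, unlike its level. The means were 6.98 ± 1.75% in sham, 3.88 ± 1.18% in placebo and 5.99 ± 1.15% in PL8177 (SD, n = 3 each). Counts summed over the thinned nuclei gave log2 fold changes of -1.36 for placebo against sham and 1.14 for PL8177 against placebo.

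Duoxa2, the maturation factor of DUOX2, was found at 225 UMIs in enterocyte nuclei. It was at 0.103, 0.160 and 0.186 UMIs per 10000 in sham libraries GR12, GR13 and GR15. In placebo it was at 0.0602, 0.129 and 0.0935 in GR22, GR23 and GR24, and in PL8177 at 0.346, 0.173 and 0.0672 in GR41, GR43 and GR44. GR41 was the highest and GR44 among the lowest of all 9 libraries, so the PL8177 libraries spanned the sham group and overlapped the placebo group. The log2 fold change was -0.89 for placebo against sham (SE 0.576, edgeR adjusted p = 0.531; -0.55 without placebo library GR22) and 1.43 for PL8177 against placebo (SE 0.525, edgeR adjusted p = 0.451). For PL8177 against sham it was 0.55 (SE 0.521, 95% interval -0.58 to 1.68). Without GR41 the values of PL8177 were 0.80 against placebo and -0.09 against sham, and against sham it was 0.18 without GR12 and 0.88 without GR44.

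Before thinning, Duoxa2 was seen mostly in nuclei that also held Duox2. At least 1 Duoxa2 UMI was present in 136 of the 1312 enterocyte nuclei with a Duox2 UMI (10.4%) and in 0.388% of the other nuclei, and 82.4% of the 165 nuclei with Duoxa2 also had Duox2. The share was higher in the nuclei with Duox2 in each of the 9 libraries, from 2.61% against 0.143% in GR44 to 19.2% against 1.19% in GR41. Nuclei with Duox2 were also deeper, with a median of 2383 UMIs against 961. After thinning to 300 UMIs the shares were 1.87% (8 of 427 nuclei) and 0.363%, and 8 of the 36 nuclei with Duoxa2 also had Duox2. These few nuclei come from 9 libraries, and the shares are given as a description.

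**Figure D3:**
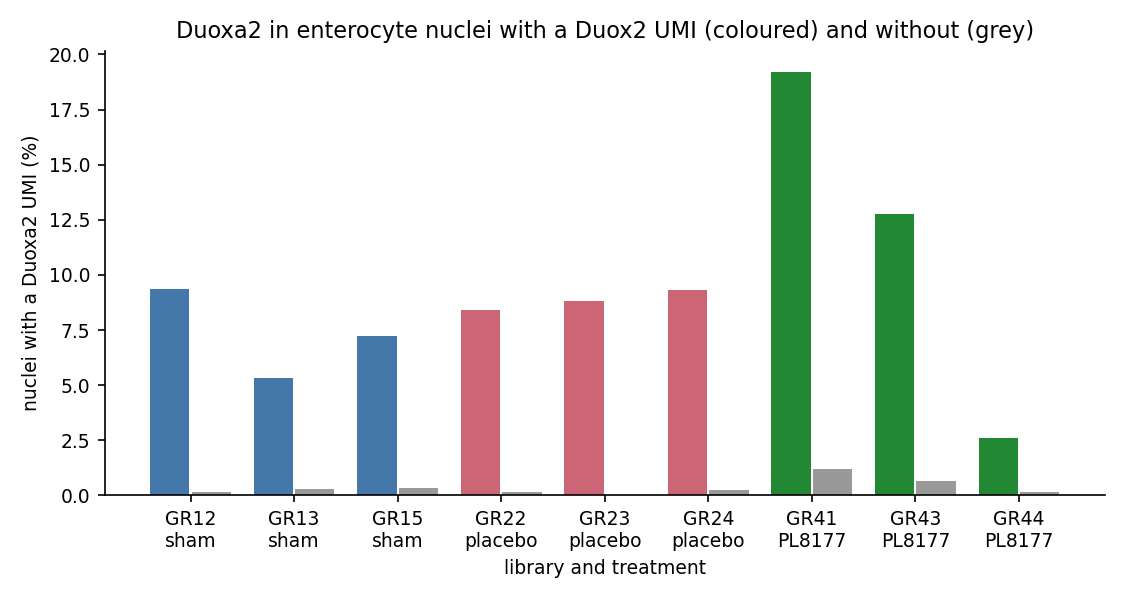
Share of enterocyte nuclei with a Duoxa2 UMI (y axis, %) among nuclei with a Duox2 UMI (coloured bars) and without one (grey bars) in each library (x axis), not thinned. The coloured bar is the taller in every library, from 2.61% in GR44 to 19.2% in GR41, while no grey bar exceeds 1.19%.

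Nox1 was close to the limit of detection in enterocytes, with 46 UMIs in all, 9 in sham, 23 in placebo and 14 in PL8177. The pooled levels were 0.0224 (exact Poisson 95% interval 0.0102 to 0.0424), 0.0394 (0.0250 to 0.0591) and 0.0216 (0.0118 to 0.0363) UMIs per 10000. The placebo libraries were at 0.0314, 0.0322 and 0.0585, the sham libraries at 0.0258, 0.0229 and 0, and the PL8177 libraries at 0.0288, 0.0175 and 0.0269. Each placebo library was thus above each of the others, but on few UMIs. These were 12, 1 and 10 in placebo libraries GR22, GR23 and GR24, 8, 1 and 0 in sham and 5, 7 and 2 in PL8177. The count of 0 in GR15 allows a level of up to 0.0621 UMIs per 10000 (3 counts). Nox1 was below the filter on low counts. Without that filter its edgeR log2 fold change was 0.94 for placebo against sham (SE 0.895), -0.68 for PL8177 against placebo (SE 0.819) and 0.26 for PL8177 against sham (SE 0.935), and a difference between treatments was not detectable at this depth (edgeR adjusted p of 0.722, 0.878 and 1.00). T cell nuclei held 20 Nox1 UMIs, 6 of them in GR23, at pooled levels of 0.111 in sham, 0.154 in placebo and 0.286 in PL8177 per 10000. Without GR23 the placebo level was 0.618 on 8 UMIs (exact Poisson 95% interval 0.267 to 1.22), which made placebo the highest of the treatments instead of the middle one. Of these 8 UMIs, 7 came from 3 nuclei of GR24, and 1 of those nuclei held 5. The interval treats UMIs of 1 nucleus as independent, and the rank of placebo rests largely on that nucleus. Without the filter on low counts, the log2 difference of enterocyte over T cell nuclei was -2.30 for Nox1 (SE 0.620, edgeR adjusted p = 0.00147). At this depth Nox1 in enterocyte nuclei is not above the T cell background.

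Pigr, the IgA transporter, was found in 6854 of 8782 enterocyte nuclei and its libraries spread more within sham and within PL8177 than the treatment means did, while the placebo libraries lay closer together. In sham it was at 12.0 (GR12), 24.5 (GR13) and 40.0 (GR15) UMIs per 10000. In placebo it was at 10.8 (GR22), 14.3 (GR23) and 16.1 (GR24), and in PL8177 at 9.07 (GR41), 13.8 (GR43) and 33.1 (GR44). The groups overlapped in every comparison, and 3 libraries, GR13, GR15 and GR44, stood above all the others. These 3 were also shallow, with medians of 437, 520 and 752 UMIs per enterocyte nucleus, while the other shallow library, GR23, had a median of 612 and a Pigr level of 14.3. The part of depth in the Pigr levels was not tested, and after thinning to 300 UMIs the same 3 libraries had the highest shares of nuclei with a Pigr UMI, 49.5%, 67.7% and 58.9%, with at most 40.2% in any other.

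The Pigr log2 fold change was -1.06 for placebo against sham (SE 0.495, 95% interval -2.13 to 0.02, edgeR adjusted p = 0.408), and it was -0.65 without sham library GR15. For PL8177 against placebo it was 0.63 (SE 0.491, 95% interval -0.43 to 1.70, edgeR adjusted p = 0.740), and it was -0.13 without PL8177 library GR44 and 0.97 without GR41. For PL8177 against sham it was -0.42 (SE 0.490, 95% interval -1.48 to 0.64, edgeR adjusted p = 0.894), and with a library left out it ran from -1.17 (without GR44) to -0.0046 (without GR15), with -0.78 without GR12, -0.079 without GR41 and -0.22 without GR43. Markers of the plasma and B cells that make IgA were at 0 to 0.203 UMIs per 10000 over 7 measured genes in the enterocyte nuclei of all libraries.

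Over the treatment comparisons, 0 of the 3 members tested, Duox2, Duoxa2 and Pigr, passed an adjusted p below 0.05 with an absolute log2 fold change above 0.5 in edgeR, and 0 of all 9424 genes did (0.00% in each of the 3 comparisons). DESeq2 called none of the members either, beside 1.14% of all genes for placebo against sham, 0.669% for PL8177 against placebo and 0.0424% for PL8177 against sham. At an unadjusted p below 0.05, Duox2 passed for placebo against sham, where 12.4% of all genes did, and Duox2 and Duoxa2 passed for PL8177 against placebo, where 9.24% did. No member passed for PL8177 against sham, where 6.59% of all genes did. Groups of libraries that did not overlap were seen for Duox2 alone among the members tested, in the first 2 of these comparisons, against 19.8% and 18.9% of all genes, and for no member in the last, against 12.0%. With 3 members tested, these counts cannot be set apart from those shares.

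The T cell nuclei served as background, and Duox2 and Pigr were found there too. Duox2 was at 0.553, 0 and 0.763 UMIs per 10000 in the T cell nuclei of sham libraries GR12, GR13 and GR15, on 13, 0 and 2 UMIs. It was at 1.49, 4.06 and 0.923 in placebo libraries GR22, GR23 and GR24 and at 2.08, 1.32 and 0 in PL8177 libraries GR41, GR43 and GR44. The 4.06 of GR23 was the highest Duox2 level of all 18 library and cell type combinations, and its nuclei also held 33 of the 34 Duoxa2 UMIs seen in T cell nuclei. Enterocyte nuclei were higher than T cell nuclei of the same library in 7 of 9 libraries for Duox2, with GR22 and GR23 the exceptions, and in 7 of 9 for Pigr. After thinning, T cell nuclei with a Duox2 UMI made up 0.926% in sham (1 of 108), 6.07% in placebo (46 of 758) and 5.62% in PL8177 (5 of 89), beside 6.72%, 3.39% and 5.90% of enterocyte nuclei. The placebo share was 0.935% (1 of 107) without GR23. In PL8177 the enterocyte share was close to the T cell share, which rests on 5 nuclei, with 0 of 30 in GR44. In placebo it was below the T cell share with GR23 and above the one without. GR23, whose nuclei went against their label, held 45 of those 46 nuclei.

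A fit with the library as a block gave log2 differences of enterocyte over T cell nuclei of 1.02 (SE 0.396) for Duox2 and 0.74 (SE 0.270) for Pigr. Both passed the adjusted threshold, which 34.1% of the 5194 genes tested did, and nothing is read from this because the authors' clusters were made from the same nuclei. Without GR23 the differences were 1.56 and 0.68. With another library left out, the Duox2 difference stayed past the threshold without GR22 and the Pigr difference without GR43, and both were lost without GR12, GR13, GR15, GR24, GR41 and GR44 (0.79 and 0.76 without GR12), with Duox2 also lost without GR43 and Pigr without GR22. Counting only T cell nuclei with a T cell marker UMI and at least as many of these as of enterocyte markers, they were 2.56 and 1.54. This choice removes T cell nuclei by their enterocyte markers, so larger differences are built in and nothing is read from them. The T cell nuclei also carried enterocyte markers, 25.2 to 102 UMIs per 10000 outside GR23. Per 100 of those marker UMIs, Pigr was at 14.9 to 44.1 in T cell nuclei outside GR23 and at 4.01 to 15.4 in enterocyte nuclei. This ratio was higher in the T cell nuclei of 8 of 9 libraries, and the source of the Pigr UMIs there was not tested. For Duox2 the same ratio was higher in the T cell nuclei of 7 of 9 libraries, on few UMIs.

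Enterocyte nuclei were divided by the UMIs of 9 surface and 13 crypt markers, since enterocytes mature as they move from the crypt to the surface. A nucleus with more surface than crypt marker UMIs was called surface-leaning (7806 nuclei), the reverse crypt-leaning (372 nuclei, 9 to 104 per library), and 604 were neither. These are ranges of a count and not cell types, since 567 surface-leaning and 240 crypt-leaning nuclei lay within 1 UMI of the division. Duox2 was higher in surface-leaning nuclei in 9 of 9 libraries, at 1.09 to 3.20 against 0 to 2.40 UMIs per 10000, on 3496 and 29 UMIs. Per library the crypt-leaning nuclei held 0 to 6 Duox2 UMIs. In GR13, GR15, GR22, GR41 and GR44 their exact Poisson 95% interval reached above the surface-leaning level, up to 13.1 in GR13. The log2 difference, with the library as a block, was 1.55 (SE 0.274, 95% interval 1.02 to 2.09, edgeR adjusted p = 8.13e-08). Duox2 was the 1 of 2 members tested that was called, while 52.6% of the 3420 genes tested, class markers not counted, passed in either direction. The smallest gap was in PL8177 library GR41, 2.44 against 2.40 on 4 crypt-leaning UMIs. Pooled over libraries, Duox2 was at 2.24 UMIs per 10000 in surface-leaning nuclei, 0.820 in crypt-leaning nuclei and 0.686 in the nuclei that were neither. The lower level was thus not particular to crypt-leaning nuclei. Surface-leaning nuclei were deeper, with a median of 1239 UMIs against 619 in crypt-leaning nuclei and 473 in those that were neither.

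Of the 225 Duoxa2 UMIs, 223 were in surface-leaning nuclei (99.1%), 0 in crypt-leaning nuclei and 2 in the others. Surface-leaning nuclei held 95.7% of all enterocyte UMIs and crypt-leaning nuclei 2.16%. The Duoxa2 level was 0.143 UMIs per 10000 in surface-leaning nuclei, and the count of 0 in crypt-leaning nuclei allows up to 0.0849 (3 counts). The exact Poisson 95% interval of that count reaches 0.104. Duoxa2 was below the filter on low counts here, and without that filter edgeR called it (adjusted p = 0.00084). Its fitted fold depends on the prior count because 1 class is at 0, and its p rests on a spread almost wholly shared over genes. Pigr ran the other way in 7 of 9 libraries, at 8.61 to 40.5 UMIs per 10000 in surface-leaning and 10.3 to 95.4 in crypt-leaning nuclei. Pooled, Pigr was at 14.0 in surface-leaning nuclei, 24.7 in crypt-leaning nuclei and 25.6 in those that were neither. Its log2 difference of surface-leaning over crypt-leaning nuclei was -0.47 (SE 0.158, edgeR adjusted p = 0.00668), which did not pass the fold threshold. It was 0.18 without the filter on low counts. Without GR13 or GR15 it passed, at -0.54 and -0.60. Crypt-leaning nuclei were 1.09% to 4.09% of the enterocyte nuclei in sham libraries, 4.75% to 12.5% in placebo and 2.09% to 3.66% in PL8177. Within surface-leaning nuclei alone, the Duox2 log2 fold change was -0.81 for placebo against sham and 0.73 for PL8177 against placebo.

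**Figure D4:**
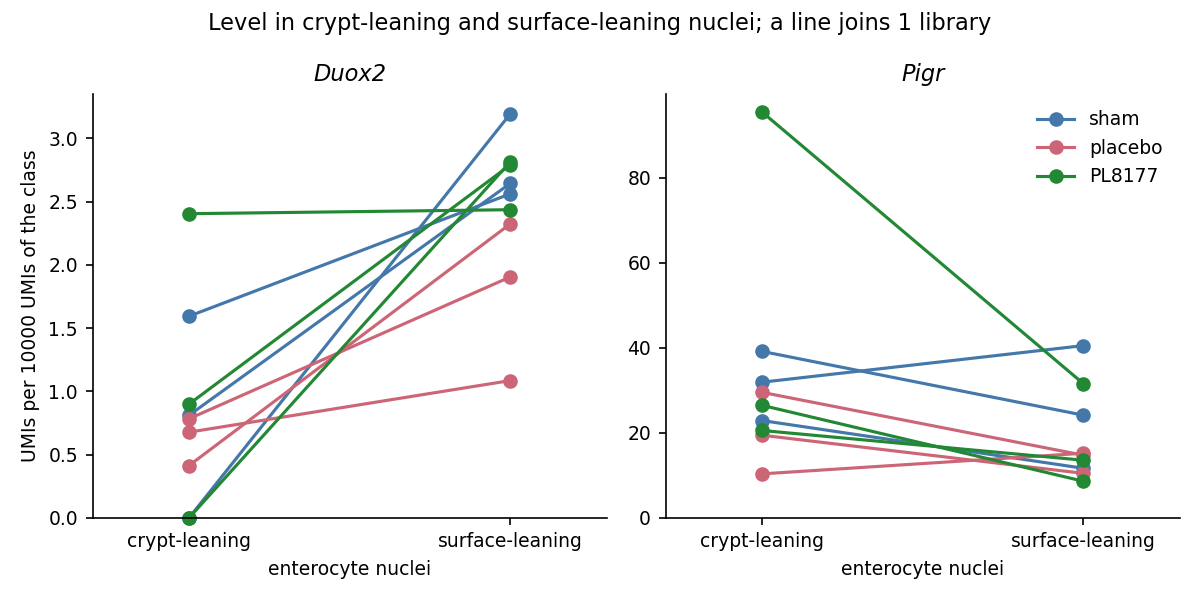
Levels of Duox2 and Pigr (y axes, UMIs per 10000 UMIs of the class) in crypt-leaning and surface-leaning enterocyte nuclei, with a line for each of the 9 libraries coloured by treatment. The Duox2 lines go up in 9 of 9 libraries and the Pigr lines go down in 7 of 9. The crypt-leaning points rest on 9 to 104 nuclei and, for Duox2, on 0 to 6 UMIs.

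Genes that work with these members were read from 3 lists. Of 17 other oxidase genes measured, 6 passed the filter on low counts and 0 were called in any treatment comparison. DUOX1 and its factor DUOXA1, the neighbouring pair, were nearly silent, with 4 Duox1 and 5 Duoxa1 UMIs in all enterocyte nuclei. Rac1, a GTPase that NOX1 needs, was at 1.88 and 1.87 UMIs per 10000 in PL8177 libraries GR43 and GR44 and higher still in GR41, above the 1.16 to 1.56 of placebo and the 0.914 to 1.79 of sham. Its log2 fold change of PL8177 was 0.61 against placebo (SE 0.259, edgeR adjusted p = 0.511) and 0.62 against sham (SE 0.261, edgeR adjusted p = 0.747). Cyba, the membrane subunit, had a log2 fold change of 0.80 for PL8177 against sham (SE 0.340, edgeR adjusted p = 0.747). The median log2 fold change of the 6 was -0.13, -0.0044 and -0.30 for placebo against sham, PL8177 against placebo and PL8177 against sham, beside 0.02, -0.01 and 0.03 over all genes.

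Of 21 other antimicrobial and mucosal defence genes measured, 9 were tested and 0 called. Ccl20, a chemokine that attracts lymphocytes and dendritic cells to the epithelium, was at 0.0419, 0 and 0.0414 UMIs per 10000 in sham libraries GR12, GR13 and GR15. It was at 0.118, 0.482 and 0.421 in placebo libraries and at 0.0461, 0.243 and 0.309 in PL8177 libraries, so no sham level reached that of any library given DSS. The nearest, GR12 and GR41, rest on 13 and 8 UMIs. The count of 0 in GR13 allows up to 0.0686 (3 counts), which is above GR41. Its log2 fold change was 3.02 for placebo against sham (SE 0.841, edgeR adjusted p = 0.207) and 2.50 for PL8177 against sham (SE 0.840, edgeR adjusted p = 0.733), on 275 UMIs. Lgals3, a galectin, had a log2 fold change of 1.06 (0.96 for PL8177 against sham) and Lgals4, a galectin of the apical membrane, of -0.70 for placebo against sham, with edgeR adjusted p of 0.354 and 0.382. Ccl28, a chemokine for IgA-secreting plasma cells, was at -0.93 for PL8177 against sham (edgeR adjusted p = 0.733). The median over the list was 0.46, 0.09 and 0.42 in the 3 comparisons, in the order given above.

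Of 24 upstream receptors and signalling genes measured, 20 were tested and 0 called. At an unadjusted p below 0.05, 4 were lower and 0 higher in placebo against sham, and 4 were higher and 0 lower in PL8177 against placebo, where 12.4% and 9.24% of all genes passed in either direction. In PL8177 against sham 2 were higher and 1 lower, beside 6.59% of all genes. Il22ra1, the epithelial IL-22 receptor chain, was at 1.03, 1.01 and 1.47 UMIs per 10000 in sham libraries GR12, GR13 and GR15, at 0.966, 0.611 and 0.643 in placebo libraries and at 1.24, 1.24 and 1.08 in PL8177 libraries. As with Duox2, each placebo library was below each of the others. Its log2 fold change was -0.77 for placebo against sham (SE 0.255, edgeR adjusted p = 0.263) and 0.81 for PL8177 against placebo (SE 0.249, edgeR adjusted p = 0.368). Nfkbiz, an IL-17-induced coactivator of defence genes, was at -0.86 and 0.77 in these comparisons (edgeR adjusted p of 0.269 and 0.454). Stat3, which transmits IL-22 signals, was at -0.55 and 0.52 (edgeR adjusted p of 0.360 and 0.523). Unlike Il22ra1, both overlapped between placebo and sham. Nfkbiz was at 1.73 in placebo library GR24 and 1.64 in sham library GR15. Stat3 was at 4.76 in placebo library GR23, above sham library GR12 (4.52) and PL8177 libraries GR41 (4.71) and GR43 (4.36). Traf3ip2, the adaptor of the IL-17 receptor, was at 0.69 for PL8177 against placebo and 0.45 against sham, and Il18, an epithelial cytokine, at -0.79 for placebo against sham. Some other genes of the list, such as the next 2, did not have their lowest levels in placebo. Nfkbia, an inhibitor of NF-κB, was at 0.869, 0.983 and 0.746 UMIs per 10000 in sham libraries GR12, GR13 and GR15. Placebo libraries had 1.03, 1.29 and 1.37 and PL8177 libraries 1.42, 1.41 and 1.76, so the groups did not overlap in any comparison, with placebo in the middle. Its log2 fold change of PL8177 against sham was 0.82 (SE 0.246, edgeR adjusted p = 0.733). Myd88, an adaptor of Toll-like and IL-1 receptors, was at -0.56 for placebo and -0.60 for PL8177 against sham (edgeR adjusted p of 0.427 and 0.747), and each sham library was above each library given DSS. Groups did not overlap for 7, 5 and 4 of the 20 genes in placebo against sham, PL8177 against placebo and PL8177 against sham, beside the 19.8%, 18.9% and 12.0% of all genes, and the list medians were -0.19, 0.14 and 0.0031.

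**Figure D5:**
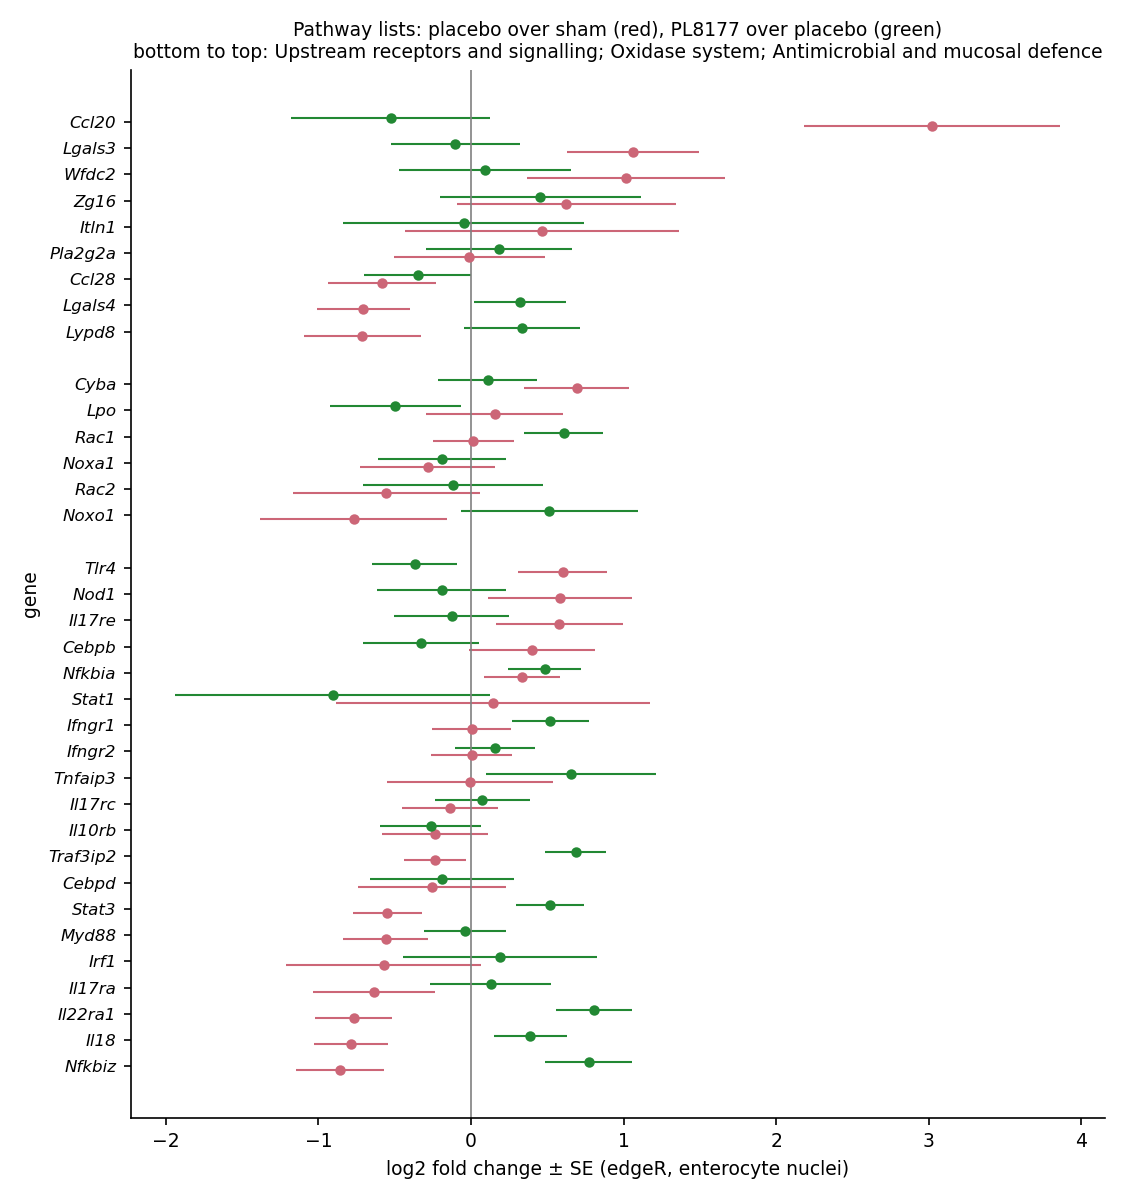
Log2 fold changes with SE (x axis) of the tested genes of the 3 lists (y axis) in enterocyte nuclei, for placebo over sham (red) and PL8177 over placebo (green). Ccl20 lies farthest to the right in red at 3.02, and Il22ra1, Nfkbiz and Stat3 lie left of 0 in red and right of 0 in green. The 2 comparisons share the placebo libraries.

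The genes whose level ran most like each member over the 9 enterocyte libraries were listed by Pearson's r of log2 CPM, as a description without p, since the libraries differ in treatment and depth. For Duox2 they were Myo10, a myosin of membrane protrusions (r = 0.94), Sntb2, a syntrophin (0.94), and Tmprss2, a membrane serine protease (0.93). For Duoxa2 they were Herc1, a ubiquitin ligase (0.91), LOC100912272 (0.91) and Fzr1, an activator of the anaphase-promoting complex (0.91). For Pigr they were Mmut, a mitochondrial mutase (0.99), Guk1, a guanylate kinase (0.97), and Rpsa, a ribosomal protein (0.97). Duox2 and its partner Duoxa2 correlated at 0.55, Duox2 and Pigr at 0.53 and Duoxa2 and Pigr at -0.02.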

How the data were processed

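The authors deposited whole UMI counts per gene and nucleus, in 6 tables of T cells and enterocytes by treatment, made with Cell Ranger 6.0.1 on the rat genome with introns included, CellBender and filters of 3 cells per gene, 200 genes per nucleus and 5% mitochondrial reads, with cell types from Seurat 4.0.3 clusters. The counts are not normalized for depth. The last line of 1 table is incomplete and was left out. Here counts were summed per library and tested with the quasi-likelihood test of edgeR 4.0.16 (R 4.3.3), after TMM scaling and the filterByExpr filter on low counts, with all 9 enterocyte libraries in 1 fit and p-values adjusted by Benjamini-Hochberg over all genes tested, or with the library as a block for cell type and for surface against crypt, in the last of which the spread was almost wholly shared over genes. A gene was called where its adjusted p was under 0.05 and its log2 fold change beyond 0.5 in either direction. DESeq2 1.42.0 was the alternative test, and its adjusted p was not available for Duoxa2 in 2 comparisons. The study's methods give 3 animals per treatment for the nuclei, as many as there are library tags, but no label ties a tag to a rat, so p-values measure the spread between libraries. With 3 against 3 libraries an exact permutation test could not go below p = 0.1.

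Intervals of levels are exact Poisson 95% intervals. Scrublet in scanpy 1.11.5, run per library, called 78 of 9800 nuclei (0.796%) doublets, which were kept in the values reported. Thinned values use 300 UMIs per nucleus. On simulated data with 200 genes changed by a log2 fold of 3, edgeR recovered 86.0% of 200 for placebo against sham, 88.5% for PL8177 against placebo, 88.0% for PL8177 against sham, 53.5% for the cell types and 34.5% for surface against crypt. It made 6, 17, 12, 4 and 7 false calls, in the same order. The fitted treatment changes of the members were smaller than this fold, and recovery of changes of their size was not simulated. Members were printed in full, and list genes by the smallest unadjusted p below 0.05 with at least 50 UMIs, up to 4 per list and comparison. Duox1 and Duoxa1 are named as neighbours, chosen after their values were seen. The members, lists, tests and alternatives were chosen with earlier results of these data known. The alternatives were DESeq2, RLE size factors, no filter on low counts, each library left out, only the treatments compared, nuclei with at least 500 genes, thinning, doublets left out, nuclei with immune marker UMIs left out, surface-leaning or crypt-leaning nuclei only, T cell marker nuclei, a margin of 2 marker UMIs and single treatments.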

Additional observations from a re-analysis of the deposited data

How the results depend on the processing

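Of 162 values of Duox2, Duoxa2 and Pigr under the alternatives of the treatment comparisons, 156 kept their direction and stayed uncalled, 0 became calls and 6 changed direction. Duox2 kept its direction in all 18 alternatives computed for placebo against sham and for PL8177 against placebo, with an unadjusted p below 0.05 in each. None of these alternatives counted the GR23 nuclei annotated as T cells, which carried enterocyte markers and a Duox2 level of 4.06, as enterocytes. The direction of PL8177 against sham was not stable. With a library left out, Duox2 ran from -0.16 to 0.12 (0.0096 without GR41) and Duoxa2 from -0.089 to 0.88, without the filter on low counts Duox2 was 0.012, and Pigr in crypt-leaning nuclei was 0.80. For PL8177 against placebo, Pigr ran from -0.13 to 0.97 with a library left out. Surface against crypt, Pigr was 0.18 without the filter on low counts and 0.36 in sham libraries alone, against -0.47.

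Genes called were 0 in each treatment comparison. DESeq2 called 107 for placebo against sham, 63 for PL8177 against placebo and 4 for PL8177 against sham, and without the filter on low counts edgeR called 51, 8 and 10. For placebo against sham, thinning gave 9, leaving out nuclei with immune marker UMIs 10 and crypt-leaning nuclei 2. For PL8177 against sham, surface-leaning nuclei gave 1 and crypt-leaning nuclei 2. With a library left out the counts were 0 to 8 for placebo against sham (3 without GR12 and without GR41), 0 for PL8177 against placebo and 0 to 2 for PL8177 against sham. Enterocyte against T cell nuclei gave 1769 genes, 3881 without the filter on low counts and 1160 (without GR12) to 2780 (without GR23) with a library left out. There the calls of Duox2 and Pigr were each lost in 7 of 9 such fits, at 0.79 to 1.56 and 0.64 to 0.86, and RLE size factors ended the Duox2 call at 1.04 (edgeR adjusted p = 0.0529). Surface against crypt gave 1800 genes, 3553 without the filter on low counts, 375 after thinning and 329 in sham libraries alone, where the Duox2 difference of 2.06 was not called, and 1616 to 2058 with a library left out. The causes were not tested. Duoxa2 could not be fitted in crypt-leaning or thinned nuclei in every comparison. No paired analysis was possible because the library tags carry no numbers that pair libraries across treatments. Depth limits Nox1, Duoxa2 and the T cell and crypt-leaning values most.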
